A study of Erysimum cheiri and Matthiola incana and Raphanus sativus with 44 samples.

Results

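Cuticular wax synthesis genes were followed through the petals of 10 Brassicaceae species. The set holds 10 Arabidopsis loci, matched by locus identifier to 34133 loci per species table, or 34131 in the Brassica table, and all 10 are listed in every table. It comprises CER6 (AT1G68530), KCS1 (AT1G01120), KCS5 (AT1G25450), CER2 (AT4G24510) and CER10 (AT3G55360) of chain elongation, CER1 (AT1G02205), CER3 (AT5G57800) and MAH1 (AT1G57750) of the alkane branch, and CER4 (AT4G33790) and WSD1 (AT5G37300) of the alcohol and ester branch. The rule names the loci and uses no measured value.

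Wax coats the outer face of the plant epidermis and limits water loss. In Arabidopsis, fatty acids are lengthened in the endoplasmic reticulum by elongase complexes, in which a ketoacyl-CoA synthase such as CER6, KCS1 or KCS5 sets the chain length, CER2 helps to reach the longest chains and CER10 is the enoyl-CoA reductase of the last step. CER1 and CER3 together turn very long acyl chains into alkanes, which MAH1 oxidises to secondary alcohols and ketones, while CER4 reduces acyl chains to primary alcohols that WSD1 joins to fatty acids as wax esters.

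Petals of half-open flowers of greenhouse plants were profiled by directional RNA-seq of polyadenylated RNA in 22 forms, each with 2 libraries that the series calls biological replicates. Forms carry the code of their sample title, since colour labels disagree with some codes. Aubrieta cultorum PI is labelled pink, and Brassica oleracea Y yellow. Eruca sativa Y is labelled brownness and carries the organism label of Erysimum cheiri. In Erysimum cheiri, B is labelled orange, O pink and P and Y yellow, and Y carries the organism label of Eruca. Iberis amara has P (pink) and PI (violet), and Lobularia maritima P (violet) and W (white). Malcolmia maritima has LP (violet) and P (white-violet), and Orychophragmus violaceus P (violet) and W (white-violet). Matthiola incana has DP (lavender), LP (modena), RB (pink) and W (white). Raphanus sativus has DP and W, both labelled violet, and LP (white-violet). Cultivars and the number of plants per library are not given in the sources used here, so p-values measure the spread between these libraries, which may be technical.

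Both Aubrieta columns hold identical values and count as 1 library, which leaves 43. Between 4910 and 14198 loci were above 0 per library, and 15 libraries listed at least 1 of 10 genes used in every cell at 0. Values are FPKM, fragment counts scaled by transcript length and library size. That scaling does not correct for how well each gene matches the Arabidopsis reference, so levels of different genes are compared as a description only. In the 7 species with several forms, the low values of 30.1% (Malcolmia) to 82.2% (Raphanus) of low loci fell on steps. From the steps of KCS5 and 1 weight per gene, shared by all species, the reads behind a value were inferred. This was done for 8 of the 10 genes, not for MAH1 and WSD1. The full depth of a library is unknown. Petal identity genes were present, with at least 4 of 5 above 0 in every library. Of 4 epidermis genes, ATML1, PDF2, PDF1 and FDH, 2 to 4 were above 0 per library. Every species was mapped to Arabidopsis, so species were set side by side without a test.

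**Figure D1:**
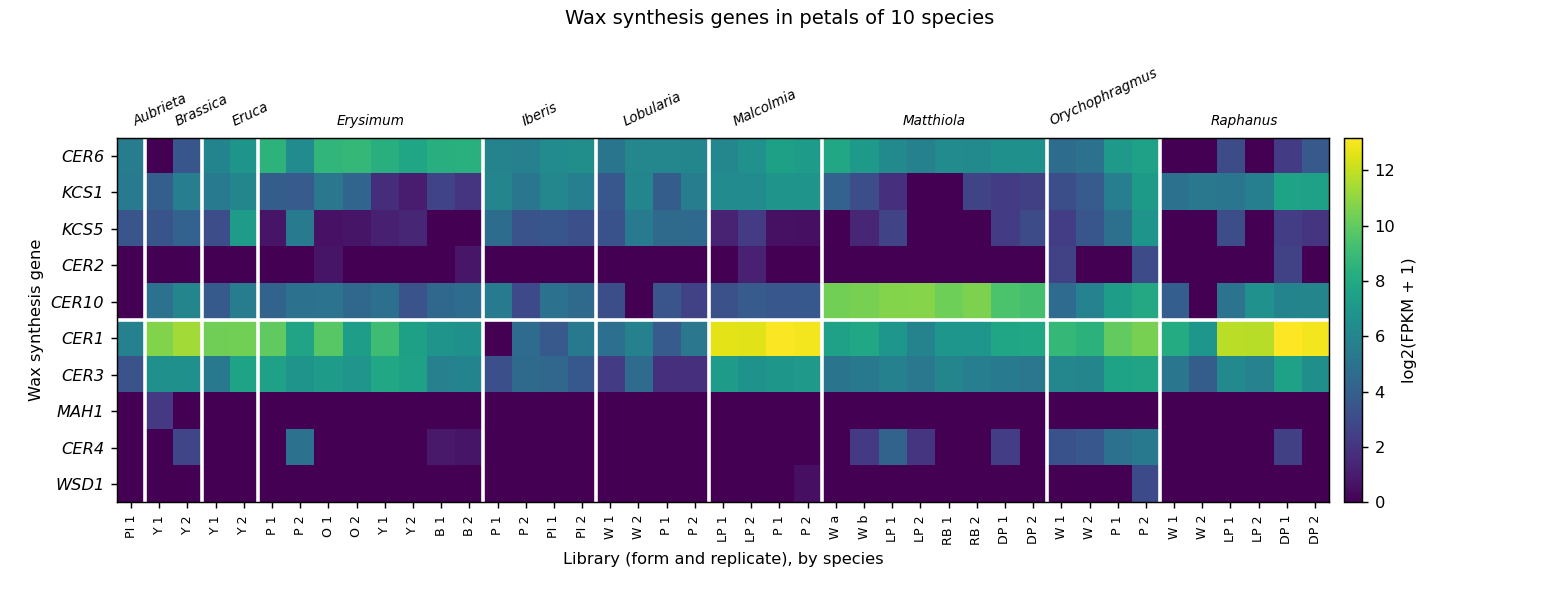
Level of each wax synthesis gene (rows, elongation genes above the white line and branch genes below it) in each of 43 libraries (columns, by species and form), as log2(FPKM + 1). CER1 stands out in Malcolmia and in Raphanus LP and DP, CER10 in Matthiola, and the rows of MAH1, WSD1 and CER2 are almost empty.

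Among the elongation genes, CER6 was above 0 in 39 of 43 libraries, with a median of 78.6 FPKM. It was highest in Erysimum, where 7 of the 8 libraries lay between 223 and 444 FPKM and library 2 of form P held 80.8 FPKM. It was low in Brassica Y, at 0 and 10.5 FPKM, and in Raphanus, at 0 in both W libraries, 7.29 and 0 FPKM in LP, and 4.15 and 11.7 FPKM in DP. A single CER6 read was worth 9.78 and 9.7 FPKM in the Raphanus W libraries, so 3 reads, the limit that a count of 0 allows, would give up to 29.3 and 29.1 FPKM there.

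KCS1 was above 0 in 41 libraries, with a median of 34.7 FPKM and its highest values in Raphanus DP. In Matthiola it ran from 0 to 16.5 FPKM, never more than 5 inferred reads. KCS5 was mostly low, with a median of 4.23 FPKM. Its highest values were single libraries whose partner was far lower: 155 FPKM in Eruca Y library 2 against 7.69 FPKM in library 1, and 111 FPKM in Orychophragmus P library 2 against 28.5 FPKM in library 1. CER6 exceeded KCS1 in 33 of 43 libraries and KCS5 in 35. CER2 was above 0 in 6 libraries of 4 species and did not pass 7.19 FPKM, which is 1 inferred read in Orychophragmus.

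CER10 set Matthiola apart in level. There it held 627 to 1760 FPKM in the 8 libraries, against a median of 22.9 FPKM and a highest value of 248 FPKM in the 35 libraries of the other species. CER10 made up 62.7% to 92.0% of the summed FPKM of the 10 genes in Matthiola and was the highest of them in all 8 libraries. In Aubrieta CER10 was listed at 0. Because it acts in every very long chain elongation, CER10 is not confined to wax.

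**Figure D2:**
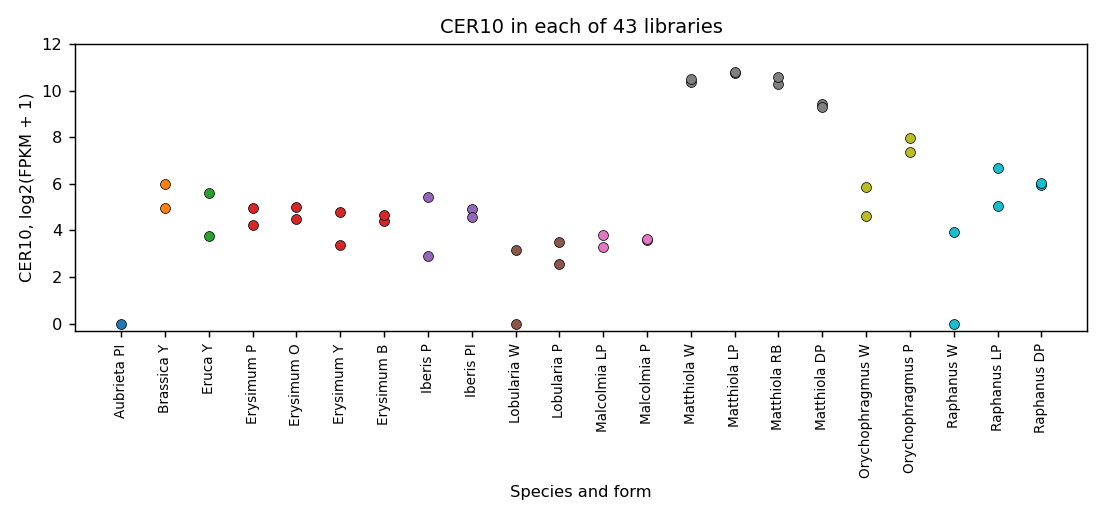
CER10 level in each of 43 libraries (points) by species and form, as log2(FPKM + 1). The 8 Matthiola libraries lie between 627 and 1760 FPKM, above all others, and Matthiola DP is the lowest of its 4 forms.

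In the alkane branch, CER1 was above 0 in 42 libraries and was the highest of the 10 genes in 23 of 43. Its form means ran over a wide range. At the top, Raphanus DP held 8640 ± 901 FPKM (SD, n = 2) and Malcolmia P 8391 ± 572, whose libraries overlapped. Malcolmia LP followed at 6268 ± 113 and Raphanus LP at 3491 ± 85.2. Brassica Y held 1654 and 2613 FPKM in its libraries and Eruca Y 1257 and 1318. The lowest levels were in Lobularia, at 12.8 to 53.6 FPKM, and in Iberis, at 0 to 38.7 FPKM. Down the order of 22 forms, 8 of 21 neighbouring pairs did not overlap.

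In all 4 Malcolmia libraries CER1 was among the 9 highest of all loci, and it was at place 11 and 13 in the Raphanus DP libraries. CER1 alone made up 95.1% to 95.4% of the summed FPKM of the 10 genes in Malcolmia and 69.9% to 95.7% in Raphanus, against 0% to 17.4% in Iberis.

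CER3 was the only member above 0 in all 43 libraries, and its range was narrower than that of CER1. It ran from 2.52 FPKM in Lobularia P to 238 FPKM in Erysimum Y, with a median of 61.0 FPKM, and 4 of the 21 neighbouring pairs of forms did not overlap. CER1 exceeded CER3 in 40 of 43 libraries, and the exceptions were Iberis P library 1, Iberis PI library 1 and Erysimum Y library 2. The ratio of CER1 to CER3 was 42.3 to 70.1 in Malcolmia and reached 85.9 in Raphanus, but was 0.962 to 5.81 in Erysimum and 0 to 3.39 in Iberis. MAH1 was above 0 in 1 library, Brassica Y library 1, at 3.57 FPKM.

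Aubrieta differed in its alkane genes. CER1 held 54.6 FPKM there, while CER1-LIKE1, a close relative of CER1 in Arabidopsis, held 1605 FPKM, its highest level in any library. CER1-LIKE1 did not pass 91.7 FPKM, its value in Erysimum P library 1, in the other 42 libraries. Reads of the Aubrieta transcripts may be split between these related loci by likeness to Arabidopsis, and that was not tested.

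**Figure D3:**
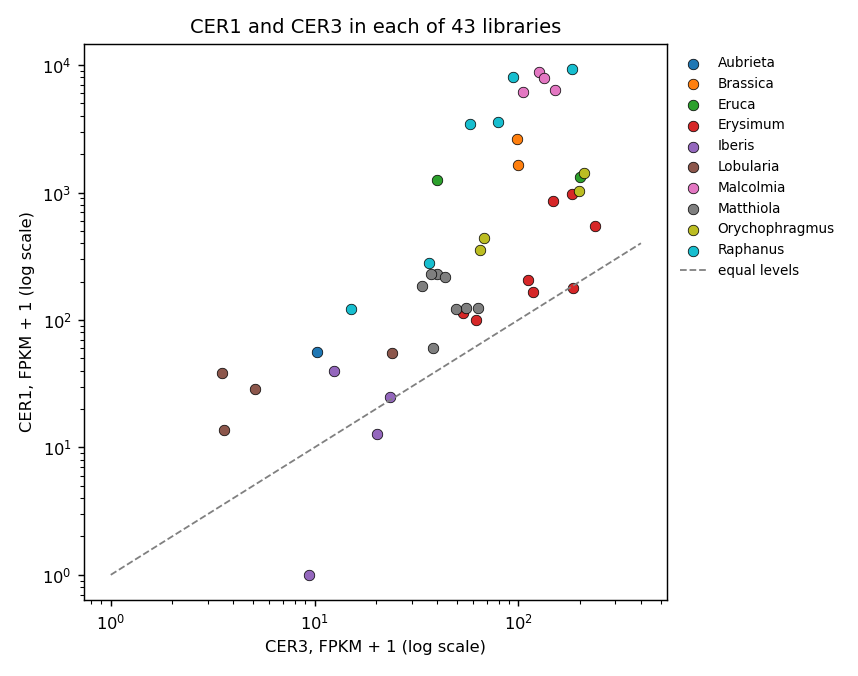
CER1 against CER3 in each of 43 libraries, as FPKM + 1 on log axes, with species by colour and a dashed line where both levels are equal. Libraries of Malcolmia and of Raphanus LP and DP lie far above the line, and 3 libraries, of Iberis and Erysimum, lie on or below it.

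In the alcohol and ester branch, CER4 was above 0 in 13 libraries of 5 species. It was present in all 4 Orychophragmus libraries, where it reached its highest value, 39.1 FPKM in P library 2, or 6 inferred reads. Elsewhere its largest values were 28.8 FPKM in Erysimum P library 2 and 17.2 FPKM in Matthiola LP library 1, and the partner libraries held 0 and 3.17 FPKM. WSD1 was above 0 in 2 libraries, at 6.76 FPKM in Orychophragmus P library 2 and 0.478 FPKM in Malcolmia P library 2. CER2 never rested on more than 2 inferred reads. Its difference between Raphanus DP and W had a limma adjusted p of 0.483, and the call it gained without DP library 2 rests on 1 library with 1 read. WSD1 was tested in Orychophragmus alone, with a limma adjusted p of 0.545, and MAH1 in no species.

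The largest difference between forms was in Raphanus sativus. CER1 held 279 and 121 FPKM in the W libraries, 3552 and 3431 FPKM in LP, and 9277 and 8003 FPKM in DP. The inferred reads were 32 and 14 in W, 547 and 442 in LP, and 2511 and 3059 in DP. The 3 forms did not overlap.

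CER1 rose from W to DP by 5.54 ± 0.41 (SE) on the log2 scale, a 43.3-fold difference of means, with a limma adjusted p of 0.0114. It rose from W to LP by 4.24 ± 0.41, 17.5-fold, with a limma adjusted p of 0.0482. Between LP and DP it differed by 1.3 ± 0.41, which did not pass the test at a limma adjusted p of 0.159. Under some alternatives that omitted no single library the call for LP against W was lost, at limma adjusted p-values up to 0.137. The call for DP against W held without any 1 library, at adjusted p-values of 0.0275 to 0.0317 in limma. The call for LP against W was lost in limma without LP library 1 (0.077), LP library 2 (0.0754), DP library 1 (0.0962) or DP library 2 (0.0888).

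KCS1 separated DP from both other forms. It held 28.7 and 38.0 FPKM in W, 35.6 and 51.2 FPKM in LP, and 203 and 187 FPKM in DP. W and LP overlapped, with 3 to 6 inferred reads per library, and DP lay above both with 50 and 65 reads. The difference was 2.52 ± 0.39 on the log2 scale against W, with a limma adjusted p of 0.0302, and 2.16 ± 0.39 against LP, with a limma adjusted p of 0.0467. Both calls were lost under some alternatives that omitted no single library. Limma adjusted p-values there reached 0.0932 against W and 0.137 against LP. The first call was lost in limma without W library 1 (0.0505), and the second without LP library 1 (0.0564), DP library 1 (0.0645) or DP library 2 (0.0651).

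The partner of CER1 moved less. CER3 held 35.4 and 14 FPKM in W, 78.9 and 56.7 FPKM in LP, and 183 and 93.2 FPKM in DP. The forms did not overlap, but W rests on 5 and 2 inferred reads, and the difference of 2.49 ± 0.64 between DP and W missed the threshold at a limma adjusted p of 0.0879. CER10 held 14.2 and 0 FPKM in W, 31.7 and 101 FPKM in LP, and 60.2 and 63.9 FPKM in DP, with a limma adjusted p of 0.197 for DP against W.

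Of the 10 genes, 8 were tested in Raphanus, where loci whose mean FPKM stayed under 1 in all forms were left out, and CER2, CER4, CER6 and KCS5 passed it only through LP or DP, being at 0 in both W libraries. For DP against W, 2 of 8 were called higher and 0 lower, where 10.8% of all tested loci were called and 7.07% were called higher. For LP against W 1 of 8 was called, against 2.56% of all loci, and for DP against LP 1 of 8, against 8%. The libraries of DP and W did not overlap for 6 of the 8, all higher in DP, where 38.8% of all loci did not overlap and 25.6% were higher. CER6 and KCS5 are among these 6. The median log2 difference of the 8 genes between DP and W was 2.51, beside 0.86 over all tested loci. CER2, CER4, CER6 and KCS5 enter the median of the 8 but, at 0 in W, could only lie level or higher in DP. Quantile scaling brought that median of all loci to 0.29 and the loci called from 809 higher and 423 lower to 335 and 305, and left CER1 at 5.66 and KCS1 at 2.49. Both comparisons with W share the W libraries, and the DP and W pair carries the same colour label.

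The Raphanus W libraries stood apart in several measures, and their part in these results was not tested. Pollen genes, VGD1, PPME1, VGDH1, AGP6 and AGP11, summed to 4501 to 4979 FPKM in W, 917 to 969 FPKM in LP and 78.6 to 152 FPKM in DP. Between 4 and 5 of the 5 pollen genes were above 0 in W, 5 in LP and 1 to 3 in DP. Carpel and ovule genes, AG, SHP1, SHP2 and STK, summed to 49.8 to 271 FPKM in W and 57.4 to 95.0 FPKM in LP and were all at 0 in DP. The 4 epidermis genes summed to 25.4 to 30.8 FPKM in W, 60.9 to 73.0 FPKM in LP and 58.6 to 61.7 FPKM in DP. PDF1 was at 0 in every library of all 3 forms, and ATML1 was at 0 outside DP. Green tissue genes, RBCS1A, RCA, LHCB1.3 and LHCA2, all above 0, summed to 761 to 782 FPKM in W, 2042 to 3174 FPKM in LP and 3620 to 4035 FPKM in DP, and RCA and LHCA2 were called higher in DP than in W. The 5 petal identity genes, all above 0, summed to 2710 to 2881 FPKM in W, 1784 to 2178 FPKM in LP and 6454 to 6768 FPKM in DP, and PI, SEP3, SEP1 and AP1 were called higher in DP than in W. Plastid loci took 69.2% of the FPKM of W library 1, and 4.08% of that of W library 2. Of the genes used in every cell, UBQ10, GAPC1 and GAPC2 were called higher in DP than in W, with GAPC1 at 311 against 30.1 FPKM on average. In bulk petals, fewer cells of a type and less RNA per cell cannot be told apart.

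Of 34 other genes of wax synthesis, export and regulation, 24 were tested in Raphanus. For DP against W 2 were called higher and 1 lower, where 10.8% of all tested loci were called. For LP against W and for DP against LP 1 each was called lower, where 2.56% and 8% of all tested loci were called. WSD6, a relative of WSD1, was at 0 in both W libraries, at 7.56 and 9.05 FPKM in LP and at 21.5 and 24.4 FPKM in DP, with a limma adjusted p of 0.0224. ABCG11, a transporter that exports wax and cutin precursors, held 5.72 and 17.0 FPKM in W, 25.5 and 30.6 FPKM in LP and 174 and 94.1 FPKM in DP, with a limma adjusted p of 0.0441 for DP against W. That call was lost in limma without any 1 of the libraries except W library 2, with adjusted p-values up to 0.134. WRI4, an activator of wax genes in Arabidopsis stems, went the other way, with 18.4 and 36.6 FPKM in W and 0 in the other 4 libraries (limma adjusted p of 0.0259 for DP and 0.0482 for LP). The LP call for WRI4 was lost in limma without LP library 2 (0.0528), DP library 1 (0.0903) or DP library 2 (0.071). The reads behind WSD6 and WRI4 were not inferred. For scale, 3 reads of CER6 were worth 29.3 and 29.1 FPKM in W and 21.9 and 26.2 FPKM in LP. The zeros of WSD6 in W and of WRI4 in LP may thus stand for levels of that size. LACS2, an acyl-CoA synthetase of cutin synthesis, was highest in LP, at 193 and 143 FPKM, against 32.4 and 22.9 FPKM in DP and 30.6 and 30.3 FPKM in W. It fell by 2.57 ± 0.41 from LP to DP on the log2 scale (limma adjusted p of 0.0398), and that call was lost without LP library 1 (0.0509).

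**Figure D4:**
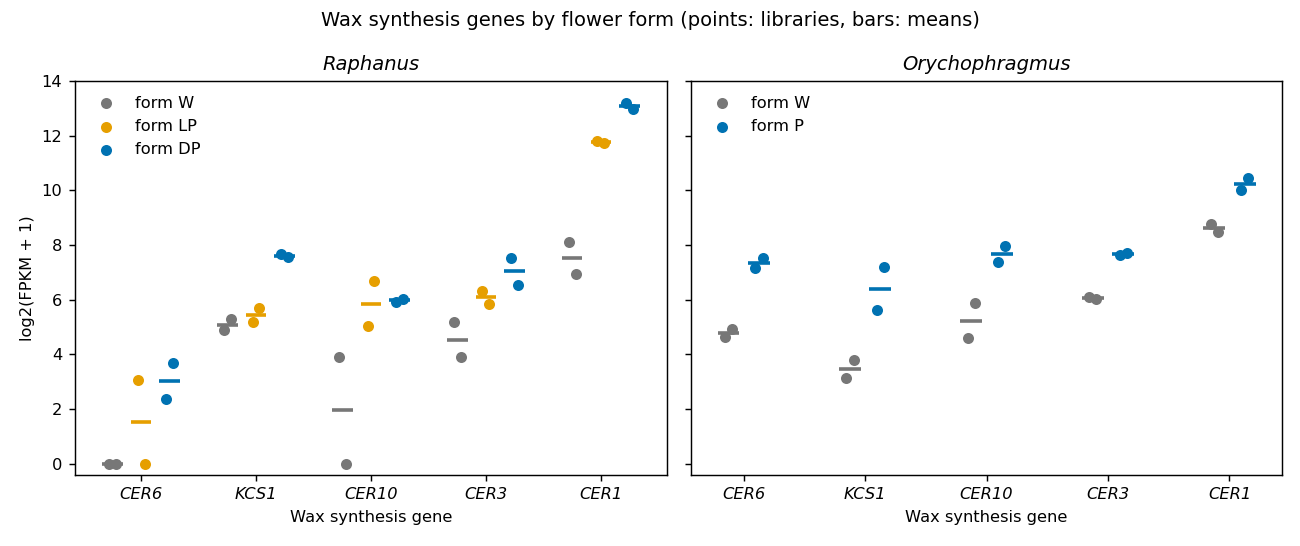
CER6, KCS1, CER10, CER3 and CER1 by form in Raphanus (left) and Orychophragmus (right), as log2(FPKM + 1), with a point per library and a bar at the form mean. CER1 is separated in all 3 Raphanus forms, KCS1 in DP alone, and in Orychophragmus all 5 genes lie higher in P than in W.

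In Orychophragmus violaceus 7 of 9 tested wax genes lay higher in both P libraries than in both W libraries, and 3 of them passed the test. CER6 held 24.2 and 29.6 FPKM in W and 142 and 183 FPKM in P, on 6 and 9 against 26 and 31 inferred reads. CER3 held 67.0 and 64.0 FPKM in W and 197 and 209 FPKM in P. CER1 held 437 and 356 FPKM in W and 1022 and 1419 FPKM in P.

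These are the 3 called genes. The log2 difference of CER6 was 2.54 ± 0.33, 6.04-fold, with a limma adjusted p of 0.0392. CER3 differed by 1.62 ± 0.24, 3.10-fold (limma adjusted p of 0.0481), and CER1 by 1.61 ± 0.23, 3.08-fold (limma adjusted p of 0.0469). CER1 and CER3 differed by nearly the same factor, and their ratio stayed within 5.2 to 6.79 in the 4 libraries. The CER1 call was lost under an alternative that kept all 4 libraries. All 3 calls were lost whichever of the 4 libraries, W 1, W 2, P 1 or P 2, was left out, at limma adjusted p-values of 0.1 to 0.235 for CER1, 0.0565 to 0.0661 for CER3 and 0.0823 to 0.112 for CER6.

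CER10, KCS1, KCS5 and CER4 lay higher in both P libraries than in both W libraries but missed the threshold. CER10 held 23.4 and 57.3 FPKM in W and 166 and 248 FPKM in P (limma adjusted p of 0.0861). KCS1 held 7.88 and 12.9 FPKM in W and 47.9 and 144 FPKM in P (limma adjusted p of 0.0938). For KCS5 and CER4 the limma adjusted p was 0.143 and 0.115. In all, 9 of 10 genes were tested, 3 were called higher and 0 lower, where 4.94% of all loci were called and 1.66% were called higher. The libraries of both forms did not overlap for 7 of the 9, all higher in P, where 45.6% of all tested loci did not overlap and 21% were higher in P. WSD1, at 0 in both W libraries, passed the filter only through P and could only lie level or higher there. The median log2 difference of the 9 genes was 1.70, beside -0.15 over all tested loci. Over all loci 219 were called higher and 434 lower, against 272 and 318 after quantile scaling and 414 and 287 after scaling to nuclear loci, which moved the median of all loci to 0.35 and left the 3 calls in place.

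Of 28 other wax genes tested in Orychophragmus, 3 were called higher in P and 1 lower, where 4.94% of all tested loci were called. SHN1, an activator of cutin and wax genes, was at 0 in both W libraries and at 327 and 261 FPKM in P, its highest level in any species (limma adjusted p of 0.0224). LTPG1, a lipid transfer protein of wax export, was at 0 in W and at 61.9 and 66.9 FPKM in P (limma adjusted p of 0.0265). KCS20, an elongation enzyme, held 40.8 and 43.3 FPKM in W and 248 and 341 FPKM in P, a difference of 2.76 ± 0.29 on the log2 scale (limma adjusted p of 0.0292). ABCG12, a transporter of wax export that was beyond the 3 largest changes, was lower in P, at 241 and 215 FPKM against 691 and 812 FPKM (limma adjusted p of 0.0312). The SHN1 and LTPG1 calls were lost in limma without P library 1 (0.0661 for both), the KCS20 call without W library 1 (0.121), W library 2 (0.12) or P library 1 (0.0661), and the ABCG12 call without any 1 library (0.0677 to 0.0936). The ABCG12 call was also lost after quantile scaling (limma adjusted p of 0.0562) and nuclear scaling (0.0697).

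Markers moved with the form in Orychophragmus as well, and their part in the result was not tested. The 4 epidermis genes summed to 111 to 126 FPKM in W and 429 to 571 FPKM in P, with 3 of 4 above 0 and PDF1 at 0 in all 4 libraries. FDH, itself an elongation enzyme of the epidermis, rose from 42.3 to 381 FPKM on average (limma adjusted p of 0.0267). Pollen genes summed to 846 to 897 FPKM in W, with 4 to 5 of 5 above 0, and to 10.4 to 35.1 FPKM in P, with 1 to 3 above 0. Of the genes used in every cell, ACT7 and GAPC1 were called higher in P, with GAPC1 at 1295 against 334 FPKM on average. AP3 was higher and PI lower in P among the petal identity genes.

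In Matthiola incana the differences were in CER10. It held 1316 and 1435 FPKM in W, 1716 and 1760 FPKM in LP, 1248 and 1554 FPKM in RB, and 695 and 627 FPKM in DP. DP lay below every other form, and LP above every other form. DP was lower than W by a log2 difference of -1.06 ± 0.15 (limma adjusted p of 0.0182) and lower than RB by -1.08 ± 0.15 (limma adjusted p of 0.0309). LP was higher than DP by 1.40 ± 0.15, or 2.63-fold (limma adjusted p of 0.0232). These 3 contrasts share the DP libraries.

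The direction against W depended on the scaling. With FPKM rescaled to equal totals over nuclear loci, CER10 in DP against W turned to 0.36 (limma adjusted p of 0.618), while LP against DP and DP against RB kept their direction at 1.68 and -1.34 but were not called (limma adjusted p of 0.171 and 0.173). Total FPKM was 1460590 and 2816590 in the W libraries and 598325 to 920687 in the other 6, and the locus AT3G08520 alone held 35.8% and 50.7% of the FPKM in W and 30.03% in DP library 1. That rescaling moved the median of all tested loci for DP against W from 0 to 0.9. After quantile scaling the DP against W difference was -0.38 (limma adjusted p of 0.303). With nuclear scaling CER10 was also called higher than in W in LP, by 2.04, and in RB, by 1.70 (limma adjusted p of 0.0212 and 0.0276), where the deposited scale gave 0.34 and 0.02. ACT2 and EF1A, used in every cell, were called lower in DP, LP and RB than in W on the deposited scale, and after nuclear scaling only ACT2 in DP kept that direction, with no call. The epidermis genes summed to 149 to 166 FPKM in W and 43.9 to 94.4 FPKM in the other forms, with PDF1 at 0 throughout and FDH also at 0 in RB, so that 2 to 3 of 4 were above 0. Green tissue genes summed to 1657 to 2020 FPKM in W, with 4 of 4 above 0, and to 444 to 847 FPKM in the other forms, with 3 to 4 above 0. On the deposited scale RCA was called lower than in W in DP, LP and RB, SEP3 in DP and RB, and LHCA2 and AP1 in RB. With nuclear scaling SEP3, AP1 and, in LP, RCA were no longer lower than in W. The part of these markers in the difference was not tested.

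Single libraries decided the Matthiola calls. The DP against W call was lost in limma without W library b (0.0523), RB library 1 or 2 (0.0568 each) or DP library 2 (0.0647), and LP against DP without W library b (0.0816), RB library 1 (0.0893) or RB library 2 (0.0809). The DP against RB call held only without DP library 1 (0.0419), and the other 7 omissions gave adjusted p-values of 0.0516 to 0.082.

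The other Matthiola members did not pass the test. CER6 held 236 and 136 FPKM in W, above 54.6 to 98.1 FPKM in the other 6 libraries, with the lowest limma adjusted p, 0.0956, for RB against W. CER1 held 185 and 230 FPKM in W, 216 and 227 FPKM in DP, 122 and 120 FPKM in RB and 122 and 58.7 FPKM in LP. CER3 lay between 32.6 and 62.4 FPKM in all 8 libraries. Of 7 genes tested, 1 was called for DP against W (2.66% of all loci), LP against DP (0.229%) and DP against RB (0.84%). Limma called 0 for LP against W (1.33%), RB against W (7.1%) and LP against RB (0.726%). In these 3 contrasts, in that order, limma gave 2, 1 and 1 of the 7 at an unadjusted p under 0.05. Over all 13088 tested loci the counts were 1901, 2874 and 1508.

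Of 25 other wax genes tested in Matthiola, PAS2 and ACC1 were called. Of all loci 2.66% were called for DP against W, 7.1% for RB against W and 0.726% for LP against RB. PAS2, the dehydratase of the same elongase complex as CER10, held 669 and 591 FPKM in W, 242 and 53.4 FPKM in LP, 32.0 and 46.4 FPKM in RB and 48.8 and 28.7 FPKM in DP. It was lower than in W by a log2 difference of -4.03 ± 0.65 in DP (limma adjusted p of 0.0256) and of -3.99 ± 0.65 in RB (limma adjusted p of 0.0145). ACC1, which makes the malonyl-CoA used for elongation, held 31.5 and 28.4 FPKM in W, 39.0 and 33.3 FPKM in LP, 532 and 398 FPKM in RB and 180 and 143 FPKM in DP. It was higher than in W by 3.90 ± 0.30 in RB (limma adjusted p of 0.00199) and by 2.38 ± 0.30 in DP (limma adjusted p of 0.0146), and lower in LP than in RB by -3.64 ± 0.30 (limma adjusted p of 0.00611). PAS2 and ACC1 thus differed from W in opposite directions in the same forms. Nuclear scaling kept those directions, but PAS2 was then not called (limma adjusted p of 0.0753 in DP and 0.0899 in RB). The ACC1 call for RB against W held without any 1 library, at limma adjusted p-values of 0.0029 to 0.0341. Its call for DP against W was lost without RB library 1 or 2 (0.0568 each), and that for LP against RB without W library b (0.0754) or RB library 2 (0.0508). Both PAS2 calls were lost without W library a, W library b, either RB library or either DP library, at limma adjusted p-values of 0.0773 to 0.171.

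In Erysimum cheiri CER1 varied more between libraries of a form than between most forms. It held 980 and 205 FPKM in P, 854 and 165 FPKM in O, 542 and 178 FPKM in Y and 113 and 98.5 FPKM in B. B lay below the other 3 forms, which overlapped each other. In every form library 1, given first, held more CER1 than library 2. Epidermis genes summed lower in library 1, at 25.5 against 122 FPKM in P, 29.1 against 79.6 in O and 27.5 against 73.9 in Y. Green tissue genes did too, at 675 against 19573 FPKM in P, 740 against 6431 in O and 349 against 1441 in Y. In B both sums differed less. The part of the replicate number in the CER1 values was not tested. CER3 held 52.4 and 61.0 FPKM in B, below 111 to 238 FPKM in the other 6 libraries. The log2 difference of CER3 between Y and B was 1.87 ± 0.54, with a limma adjusted p of 0.746.

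KCS1 ordered the forms otherwise. It held 36.6 and 18.9 FPKM in O, 13.7 and 12.7 FPKM in P, 5.29 and 3.04 FPKM in B and 2.34 and 1.06 FPKM in Y, and no form overlapped another. The log2 difference between O and Y was 3.38 ± 0.68, with an unadjusted p of 0.00128 and an adjusted p of 0.863 in limma over 14788 loci. Library 2 of P stood apart, with KCS5 at 41.0 FPKM and CER4 at 28.8 FPKM, where library 1 held 0.668 and 0 FPKM and no other Erysimum library passed 1.71 and 0.854 FPKM. It had 10084 loci above 0, against 12189 to 13106 in the other 7, and its inferred depth was 0.205 of that of the deepest Erysimum library. Green tissue genes, 4 of 4 above 0, summed to 19573 FPKM there, against 349 to 6431 FPKM in the other 7. Pollen genes, with 3 of 5 above 0, summed to 283 FPKM against 14.8 to 58.4 FPKM, and the 5 petal identity genes to 15438 FPKM against 6122 to 7583 FPKM. Their part in the KCS5 and CER4 values was not tested.

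Of 7 genes tested in Erysimum, limma called 0 in each of 6 contrasts, and 1 had an unadjusted p under 0.05 in each contrast except P against O, which had 0. Over all 14788 tested loci, 386 (O against Y) to 1494 (P against B) had an unadjusted p under 0.05. Calls were rare over all loci too, at 0.0135% for O against B, 0.00676% for P against B, 0.0203% for Y against B, 0.0203% for O against Y, 0.027% for P against Y and 0.0135% for P against O. Without P library 1, CER4, CER6 and KCS5 were called in all 3 contrasts of P, 9 calls that rest on P library 2 alone. In that fit 35.4% of all loci were called for P against B, 34.2% for P against Y and 34.4% for P against O. The lone library is there assumed to vary like the other forms.

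In Malcolmia maritima, where CER1 rests on 13225 to 21424 inferred reads per library, it held 6348 and 6188 FPKM in LP and 8795 and 7986 FPKM in P. The forms did not overlap, and the log2 difference of 0.42 ± 0.24 had a limma adjusted p of 0.272. CER6 held 67.1 and 99.3 FPKM in LP and 180 and 157 FPKM in P, a difference of 1.03 ± 0.27 (limma adjusted p of 0.0768). KCS1 held 82.1 and 81.7 FPKM in LP and 113 and 111 FPKM in P. Of 6 genes tested 1, CER6, had an unadjusted limma p under 0.05, as had 4185 of the 12871 tested loci. After adjustment limma called 0 of the 6, where 4.09% of all loci were called. Of those, 356 were higher and 170 lower in P, while a pseudocount of 0.1, no filter and quantile scaling each called 1 higher and 1 lower, and nuclear scaling 216 higher and 1882 lower with the median of all loci at -0.59. KCR1, the reductase that follows the ketoacyl-CoA synthase, was the 1 called gene of 23 other wax genes tested, at 17.3 and 16.5 FPKM in LP and 62.2 and 53.9 FPKM in P (limma adjusted p of 0.0468). That call was lost in limma without any 1 of the 4 libraries (0.0586 to 0.351), with a pseudocount of 0.1 (0.0626), without the filter (0.0628) and after quantile scaling (0.0671).

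In Iberis amara, CER6 held 58.4 and 53.2 FPKM in P and 79.8 and 91.0 FPKM in PI, the 1 gene of 6 tested whose forms did not overlap, where 25.1% of all loci did not. In Lobularia maritima, CER6 held 33.7 and 67.3 FPKM in W and 68.0 and 65.8 FPKM in P, and CER3 held 4.09 and 23.0 FPKM in W and 2.60 and 2.52 FPKM in P, the latter 1 inferred read each. Limma called 0 of 6 genes in each species, with 0 at an unadjusted p under 0.05, and 0% of all loci in each. An unadjusted p under 0.05 was found for 580 of 10555 loci in Iberis and 374 of 8801 in Lobularia. Without Lobularia W library 1, CER3 was called lower in P (limma adjusted p of 0.0415), with W then represented by 1 library and 21.2% of all loci called. Of the other wax genes, 26 were tested in Iberis and 25 in Lobularia, and 0 were called in either.

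**Figure D5:**
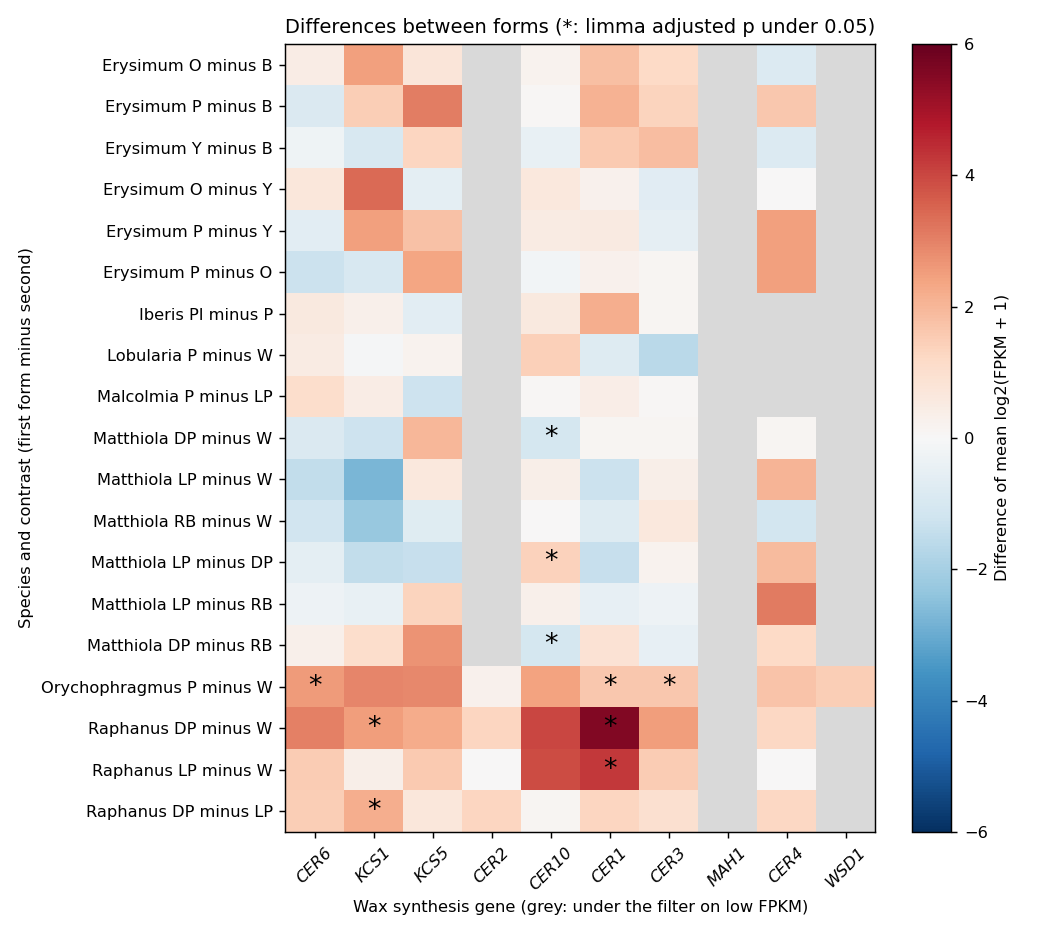
Difference of mean log2(FPKM + 1) for each wax synthesis gene (columns) in 19 contrasts between forms (rows, first form minus second), with red for higher and blue for lower, grey for genes under the filter on low FPKM, and an asterisk for a limma adjusted p under 0.05. The 10 calls lie in Matthiola (CER10), Orychophragmus (CER6, CER1 and CER3) and Raphanus (CER1 and KCS1).

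Over the 19 forms of the 7 species with several forms, form means of log2(FPKM + 1), centred within species, were compared between genes as a description. The points share libraries and depth within a species. Pearson's r was 0.758 between CER1 and CER3, 0.774 between CER1 and CER6, 0.791 between CER6 and CER10 and 0.734 between CER6 and KCS1. These are among the highest pairs. Over all pairs without MAH1, r ran from 0.13 (WSD1 and CER2) to 0.791, with 0.758 for CER4 and KCS5 and 0.293 for CER6 and KCS5. Among 5134 loci tested in all 7 species, the most alike was AT5G18610 for CER1 (r of 0.912) and AT5G06700 for CER3 (r of 0.915). For CER6 it was GAPC1 (r of 0.903), a glycolytic gene used in every cell. The files pair no name with the first 2 loci.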

How the data were processed

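FPKM values per Arabidopsis locus were read as the authors deposited them, in 1 table per species, for 44 petal libraries of 10 species, of which 43 differ. Per the submitters' processing notes, TopHat, Cufflinks, Cuffdiff and DESeq were used, and per the series' design text Arabidopsis served as the reference for every species. Versions, genome build, annotation and counting settings are not given in the sources used here. Mapping to another species can lower FPKM with sequence distance and can split reads between paralogs. Levels in different species, and of different genes, were therefore compared without a test.

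Forms were compared within each of 7 species with limma 3.58.1 (R 4.3.3) on log2(FPKM + 1), over loci with a mean of 1 FPKM or more in a form. All forms of a species entered its fit, p-values were adjusted by Benjamini-Hochberg over all tested loci of a contrast, and an adjusted p under 0.05 was a call. A log2 difference on this scale understates the change of low genes, while a fold is the ratio of mean FPKM. The fit was run on simulated data with normal noise and without differences of depth or batch, which does not check the calls made here. Each SD is over 2 libraries.

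Read numbers were inferred with Python 3.11.15, pandas 2.3.3 and numpy 2.4.6. In each species the FPKM of 1 KCS5 read came from the steps between its low values, within 0.1 of a whole read. For the other genes it was multiplied by 1 weight per gene, inferred from low values pooled over species and taken as equal in all. The CER1 weight rests on 5 low values in 2 species, so CER1 reads in Malcolmia and Raphanus are extrapolated. These read numbers cover counting error only. The floor for a value of 0 was 3 reads. Figures used matplotlib 3.10.9.

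The 10 genes, the 34 other wax genes and the marker lists were chosen with earlier results of these data known. All 10 were described, and of the other wax genes at most 3 calls per contrast, those of largest log2 difference, plus ABCG12, CER1-LIKE1, FATB, MYB96 and MYB16, which were chosen after their values were seen. Erysimum columns headed PI were taken as form P, by inference, and the Matthiola W columns share a heading and are called a and b. Replicate numbers were not taken to pair the libraries. Same-numbered libraries deviated with correlations of -0.047 to 0.099, except 0.374 for Erysimum O and Y, and a shared step there was not tested. Results were recomputed with a pseudocount of 0.1, without the filter, with quantile scaling, scaling to nuclear loci, a replicate block, each library left out, and a fit of only the compared forms. No genome or sequence table was used here.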

Additional observations from a re-analysis of the deposited data

Results flagged for a closer look

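In 5 cases a wax gene moved one way in both libraries of a form in 1 species and the opposite way under the same pair of form codes in another species. None of these differences between species was tested, and the codes name a form within a species, not the same colour. The share of all loci that moved so was not counted. Within a contrast, libraries of the 2 forms did not overlap for 38.8% of all loci in Raphanus (DP against W) and 45.6% in Orychophragmus. CER1 was lower in LP than in W in Matthiola and higher in Raphanus, and the log2 differences lay 5.51 apart. For DP against W, also lower in Matthiola and higher in Raphanus, the gap was 5.07 for CER10, 3.88 for CER6 and 3.77 for KCS1. The CER6 gap depends on the pseudocount, since CER6 was at 0 in both Raphanus W libraries, and the Matthiola directions of CER10 (DP against W) and of CER1 (LP against W) turn with nuclear scaling. Raphanus W held CER10 at 14.2 and 0 FPKM, so the CER10 gap depends on the pseudocount too. KCS1 in Matthiola rested on 3 and 5 inferred reads in W and 1 and 2 in DP. CER3 was lower in P than in W in Lobularia and higher in Orychophragmus, with a gap of 3.25. In Lobularia it rested on 2 and 9 inferred reads in W and 1 in each P library.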

How the results depend on the processing

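Of the 10 calls, CER1 in Raphanus DP against W was the only one kept under every alternative run, and 29 calls appeared under some alternative alone. The cause was not tested. Wax genes called with a library left out numbered 0 to 9 in Erysimum (0 with all libraries), 0 to 1 in Lobularia (0), 0 to 4 in Matthiola (3), 0 in Orychophragmus (3) and 2 to 6 in Raphanus (4), with 0 in Iberis and Malcolmia throughout. The share of all loci called in these fits ran from 0% up to 35.4% in Erysimum, 21.2% in Lobularia, 10.3% in Matthiola, 18.3% in Orychophragmus, 24.4% in Raphanus, 15.1% in Iberis and 7.68% in Malcolmia, so the counts of wax genes are to be read against it. The replicate block gave 6 calls in Orychophragmus, where it called 17% of all loci. In Raphanus it gave 1, where it called 0.891% (DP against W), 0.0437% (LP against W) and 0.236% (DP against LP) of all loci. In the Matthiola contrasts without W it gave 0, where 2 stood before and where it called at most 0.0403% of all loci. Replicate numbers were not taken to pair the libraries. Fitting only the compared forms gave 1 call in Matthiola, with 0% to 4.21% of all loci called by contrast. Quantile scaling gave 2 in Raphanus, with 0.253% to 5.59% of all loci called. Nuclear scaling turned CER10 DP against W to 0.36, CER1 LP against W to 0.42, and CER6 to 0.21 in LP and 0.51 in RB against W, all in Matthiola. Differences also changed sign with the library left out. In Erysimum, CER6 ran from -1.96 to 0.20 for P against B and from -1.72 to 0.45 for P against Y, and KCS5 from -0.57 to 4.09 for P against Y. CER10 ran from -0.14 to 0.18 for Matthiola RB against W. KCS5 in Raphanus ran from -0.89 to 2.22 for DP against LP, with -0.88 under quantile scaling, and from 0 to 3.11 for LP against W, where W is at 0. Of the other values for single genes, 375 kept their side of the threshold and their direction, 51 lost a call and 34 gained one. The 375 pool calls that held with differences that stayed uncalled, while all 51 losses fall on the 10 calls. The 375 thus do not measure how well the calls held. Each form has 2 libraries. No wax gene passed 24 inferred reads in Iberis or Lobularia, or 32 in Raphanus W, while CER1 in Malcolmia rests on 13225 or more and was not called.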

Other observations

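Genes upstream of the wax genes gave further values. FATB, the thioesterase that releases saturated fatty acids from the plastid, was above 0 in all 43 libraries and reached its highest value, 1806 FPKM, in Erysimum O library 2. MYB96, an activator of wax genes under drought in Arabidopsis, held 313 and 278 FPKM in Brassica Y and 148 and 139 FPKM in Raphanus DP. MYB16, a regulator of petal cell shape and cuticle, held 1323 and 481 FPKM in Eruca Y, where CER1 held 1257 and 1318 FPKM.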
